A study of Mus musculus with 14 samples.

Results

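The 10 genes described here are lymphoid priming genes: Dntt, Il7r, Ikzf1, Satb1, Rag1, Notch1, Ebf1, Tcf3, Lef1 and Bcl11a. They were taken by name from the 55450 gene identifiers of the count files, and all 10 were found. Their RNA was measured in 14 libraries of mouse long-term hematopoietic stem cells (LT-HSCs), which sit in the bone marrow and can renew all blood lineages for life. Each library was made from 5000 sorted cells that lacked CD48 and antigens of mature blood cells (CD3 of T cells, B220 of B cells, Mac-1 and Gr-1 of myeloid and Ter-119 of erythroid cells) and carried Sca-1, c-Kit and CD150.

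All donors were female C57BL/6 mice. The Selp low group (4 libraries) and the Selp high group (4 libraries) were LT-HSCs with low or high surface P-selectin from 4 mice over 24 months old, sorted without transplantation. The Selp low-derived group (3 libraries) and the Selp high-derived group (3 libraries) were CD45.2+ LT-HSCs recovered 16 weeks after 1000 old Selp low or Selp high cells had been injected into recipients 10 to 16 weeks old that had been lethally irradiated. These recovered cells were selected on CD45.2, which leaves out host cells with another CD45 allele, and not on P-selectin. All 4 groups therefore descend from aged donors, and no young LT-HSCs were compared here.

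Lymphoid priming is the low expression of lymphoid genes in stem and multipotent progenitor cells before any lymphoid commitment. The transcription factors among the 10 genes act at successive steps: Ikzf1 (Ikaros), Tcf3 (the E proteins E12 and E47) and Bcl11a already act in stem and multipotent cells, Satb1 organises chromatin at lymphoid genes, Ebf1 commits cells to the B lineage, and Lef1 carries Wnt signals in B and T progenitors. Notch1 is the receptor that starts T cell development, Il7r is the receptor chain for interleukin 7, and Dntt (terminal transferase) and Rag1 (a subunit of the recombinase) act on antigen receptor genes.

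On GRCm38, Tcf3 spans chr10:80409514-80433647 on the minus strand, Ikzf1 chr11:11685003-11772926 and Bcl11a chr11:24078056-24174123 on the plus strand, and Notch1 chr2:26457903-26516663 on the minus strand. Satb1 (chr17:51736187-51833290), Il7r (chr15:9505788-9530176) and Rag1 (chr2:101638282-101649501) lie on the minus strand. Dntt (chr19:41029275-41059525), Ebf1 (chr11:44617317-45008091) and Lef1 (chr3:131110471-131224356) lie on the plus strand. Reads in annotated exons were counted over each whole gene, so isoforms, such as those for E12 and E47, were not separated.

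Of the 9 genes tested, 2, Tcf3 and Ikzf1, were called higher (adjusted p under 0.05) after than before transplantation. The stretches just upstream of their start sites are printed for that reason. The Tcf3 call was lost in 9 of 22 alternative analyses, and Tcf3 changed little in the Selp low input (log2 change 0.03). The sequences are from RefSeq (GRCm38.p6), whose promoter table held all 10 genes, and run 5′ to 3′ on the gene's strand up to the first annotated exon. Capitals mark the E-box CANNTG, the element that E proteins and their partners bind, which reads the same on both strands. Tcf3 is on the minus strand at chr10:80433648-80433885 and Ikzf1 on the plus strand at chr11:11685675-11685924, inside the first intron of a longer annotated Ikzf1 transcript.
Tcf3: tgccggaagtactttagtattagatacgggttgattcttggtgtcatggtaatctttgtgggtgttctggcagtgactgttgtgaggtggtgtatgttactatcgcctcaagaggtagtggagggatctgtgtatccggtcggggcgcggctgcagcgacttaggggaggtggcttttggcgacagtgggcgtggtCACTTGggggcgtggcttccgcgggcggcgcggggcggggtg
Ikzf1: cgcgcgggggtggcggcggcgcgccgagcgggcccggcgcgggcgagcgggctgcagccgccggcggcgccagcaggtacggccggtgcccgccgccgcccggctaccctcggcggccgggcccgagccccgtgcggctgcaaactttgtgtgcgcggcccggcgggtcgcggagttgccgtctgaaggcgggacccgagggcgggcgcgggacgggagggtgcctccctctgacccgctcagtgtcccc
The Tcf3 stretch of 238 bases held 1 E-box and the Ikzf1 stretch of 250 bases held 0. Among 32851 promoter windows, 64.7% held at least 1 E-box in the same 238 bases and 66.2% in the same 250 bases. GGGAA, the core of the motif that Ikaros binds, was looked for on both strands and had 0 matches in either stretch, while 54.4% and 56.2% of windows of those lengths held it. The Ikzf1 stretch was 82.0% G and C and the Tcf3 stretch 58.4%. A match is a description of these letters and not a binding site.

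Libraries held 22374794 to 38216775 reads assigned to genes. All 8 LT-HSC marker genes had reads in every library, and their summed level was 2764 to 4848 CPM (read counts scaled to library size with TMM, the between-library correction of edgeR). Some libraries also held more RNA of other blood cells than the rest. The summed neutrophil markers reached 14534 and 19636 CPM in the Selp low and Selp high libraries of mouse 4 and 12208 CPM in Selp low-derived replicate 2, against 280 to 5864 CPM in the other 11. Summed levels over all 14 libraries were 7.99 to 69.2 CPM for mature B, 8.92 to 232 for plasma cell, 86.1 to 312 for NK and innate lymphoid, 2.56 to 42.9 for plasmacytoid dendritic, 9.87 to 506 for monocyte, 4.44 to 176 for mast cell and basophil, 124 to 2591 for erythroid and 205 to 377 for platelet markers.

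The levels of the 10 genes covered a wide range. Levels compared between genes are given per length, as RPKM (reads scaled to exon length and library size). Averaged over 14 libraries, Tcf3 stood at 46.0 RPKM (range 35.2 to 59.0), Ikzf1 at 11.7 (6.70 to 17.0), Bcl11a at 8.62 (7.22 to 9.34) and Notch1 at 2.03 (0.834 to 3.36). The lowest Tcf3 library was above the highest Ikzf1 library, and the lowest Bcl11a library above the highest Notch1 library, while Ikzf1 and Bcl11a overlapped in range. Below them came Dntt at 0.655 RPKM (0 to 2.47), Satb1 at 0.226 (0.115 to 0.326), Il7r at 0.0840 (0 to 0.221), Ebf1 at 0.0686 (0 to 0.159), Lef1 at 0.0501 (0.00768 to 0.0992) and Rag1 at 0.0130 (0 to 0.0382). Each of these 6 overlapped its neighbours in the order. Over all libraries Tcf3 had 72356 reads, Bcl11a 44115, Ikzf1 26010 and Notch1 11315, while Satb1 had 1693, Dntt 572, Ebf1 256, Lef1 169, Il7r 145 and Rag1 32.

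**Figure D1:**
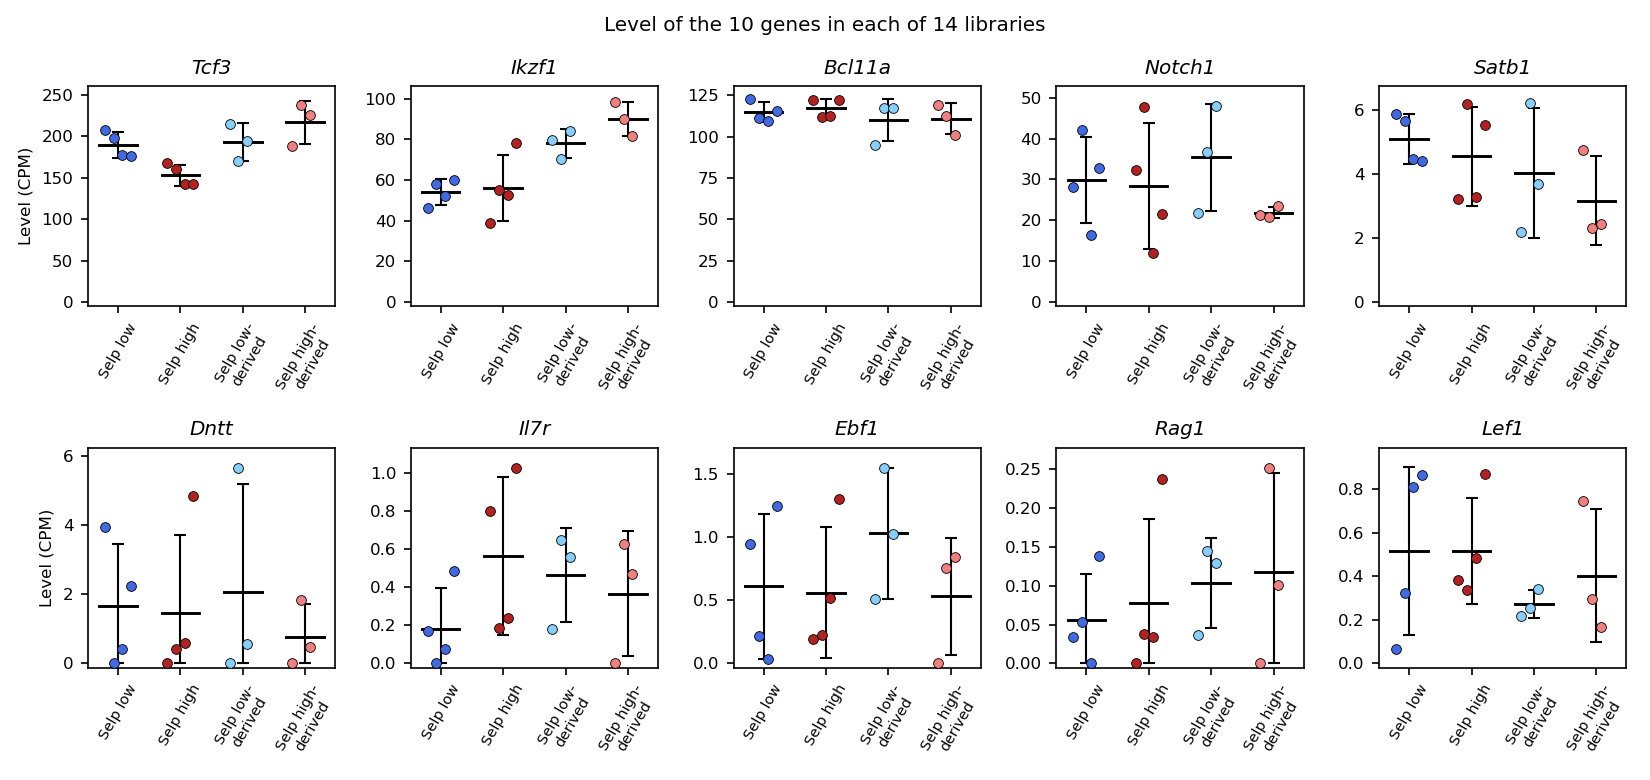
Level in CPM (vertical axis) of each of the 10 genes in 14 libraries, by group. Points are libraries, the wide bar is the group mean and the thin bar the SD, cut at 0. Tcf3, Ikzf1 and Bcl11a sit above 38 CPM in every library, while Dntt, Il7r, Ebf1, Rag1 and Lef1 stay under 6 CPM and scatter within each group.

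Selp high LT-HSCs were compared with Selp low LT-HSCs from the same old mice to ask whether surface P-selectin parts cells that differ in lymphoid priming. None of the 9 genes tested passed the threshold, an adjusted p under 0.05 from edgeR's quasi-likelihood test over 16878 genes. Rag1 had too few reads to be tested. The share of all genes called was 0% in this comparison. At an unadjusted p under 0.05 stood 1 of the 9 genes (Tcf3) and 860 of all genes, and DESeq2 and limma voom called 0 of the 9, with 11 and 0 calls over all genes. The median log2 change was -0.08 over the 9 genes and -0.02 over all genes, with 4 values above and 5 below 0. In bulk libraries, fewer cells that express a gene and less RNA per cell cannot be told apart.

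Tcf3 was the 1 gene of the 9 whose groups did not overlap before transplantation, as was the case for 3.08% of all genes tested. Its level was 207, 198, 177 and 176 CPM in the Selp low libraries of mice 1 to 4 and 168, 160, 142 and 143 CPM in the Selp high libraries of the same mice. Every Selp high library was below every Selp low library, and the difference within each mouse was nearly the same, -0.31, -0.30, -0.32 and -0.30 on the log2 CPM scale. The group means were 189.6 ± 15.4 and 153.2 ± 12.7 CPM (SD, n = 4 each), a fitted log2 change of -0.31 ± 0.11 (SE), with an unadjusted p of 0.0115 and an adjusted p of 0.959 by edgeR's test. With the mouse as a block the log2 change was -0.29 and the adjusted p 0.140, so the difference did not pass the threshold in that fit either.

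Ikzf1 read 46.0, 57.9, 52.3 and 60.1 CPM in Selp low and 38.7, 54.9, 52.4 and 78.2 CPM in Selp high libraries. The groups overlapped, mouse 4 had the highest value in both, and the log2 change was 0.05 ± 0.17 (adjusted p = 0.995). Bcl11a, a repressor that B cell development requires, was the steadiest gene of the set, at 123, 111, 109.6 and 115 CPM in Selp low and 122, 112, 112 and 122 CPM in Selp high libraries, a log2 change of 0.03 ± 0.09. Its biological coefficient of variation, the spread between libraries of a group beyond counting error, was 0.114, with a trend of 0.172 for genes of its level.

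Notch1 varied by mouse more than by group. It stood at 28.3, 42.0, 16.5 and 32.9 CPM in Selp low and 32.4, 47.7, 11.9 and 21.5 CPM in Selp high libraries. Mouse 2 was highest and mouse 3 lowest in both groups, and the differences within a mouse were 0.19, 0.18, -0.47 and -0.61 on the log2 scale. Its coefficient of variation of 0.367 was above the 0.229 of the trend, and the fitted log2 change was -0.08 ± 0.37. Satb1 was at 5.87, 5.67, 4.48 and 4.39 CPM in Selp low and 3.21, 6.21, 3.27 and 5.55 CPM in Selp high libraries, with overlapping groups and a log2 change of -0.16 ± 0.35.

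**Figure D2:**
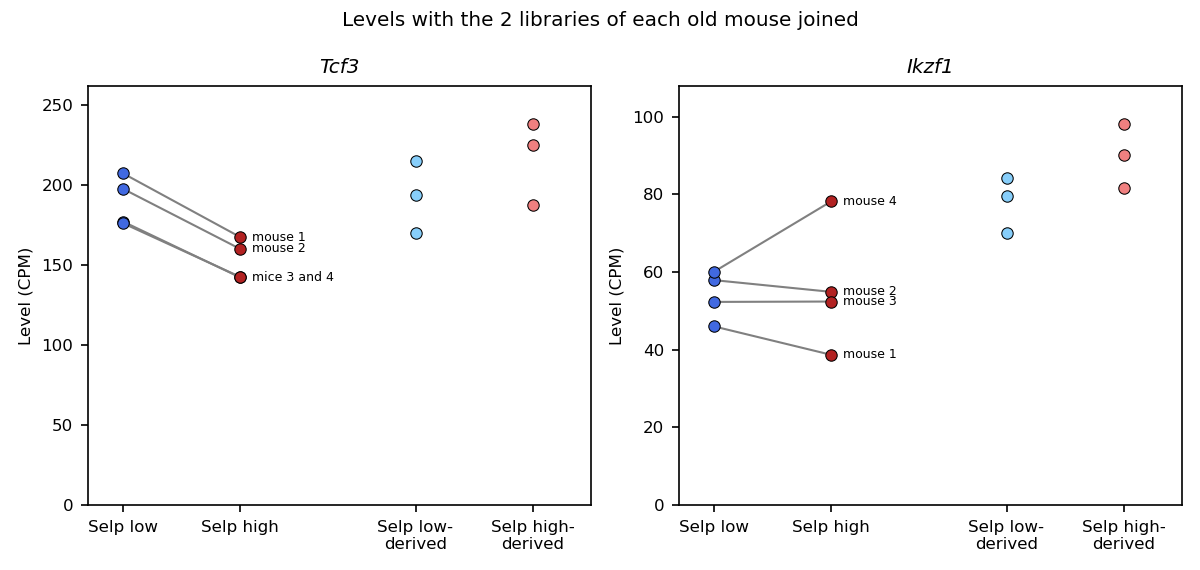
Levels of Tcf3 and Ikzf1 in CPM (vertical axes, from 0) in the 4 groups, each point a library. Lines join both libraries of an old mouse: Tcf3 falls along all 4 lines from 176 to 207 CPM down to 142 to 168 CPM, and Ikzf1 has no common direction before transplantation and lies between 70.2 and 98.1 CPM in all 6 libraries after it.

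The other 5 genes had few reads, and several of their values turned on single libraries. Dntt, which adds untemplated bases to rearranging receptor genes, had 117, 1, 11 and 65 reads in Selp low and 0, 11, 17 and 122 reads in Selp high libraries. In CPM this was 3.95, 0.0268, 0.424 and 2.25 against 0, 0.411, 0.585 and 4.83, so each group held libraries near 0 and libraries with clear signal. The coefficient of variation of Dntt, 1.71, was far above its trend of 0.533, and the log2 change was -0.19 ± 1.64. Leaving out Selp low replicate 1 turned it to 0.70, and leaving out Selp high replicate 4 moved it to -2.29.

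Il7r had 5, 0, 2 and 14 reads in Selp low and 21, 5, 7 and 26 reads in Selp high libraries. The Selp high library was above the Selp low library in each of the 4 mice, by 1.86, 1.85, 1.07 and 0.99 on the log2 CPM scale, although the groups overlapped. The fitted log2 change of 1.62 ± 1.06 had an adjusted p of 0.959, and the value was above 0 in all 21 alternatives that gave one. Ebf1 had 28, 8, 1 and 36 reads in Selp low and 5, 6, 15 and 33 in Selp high libraries (log2 change -0.13 ± 0.99). Lef1 had 2, 12, 21 and 25 reads against 10, 9, 14 and 22 (log2 change 0.01 ± 0.68). Rag1 had 1, 2, 0 and 4 reads against 0, 1, 1 and 6. Where a library had 0 reads of one of these genes, 3 reads, the limit that a count of 0 allows, would have been 0.0803 to 0.116 CPM.

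Libraries with the most B lineage RNA had the highest values of 4 of the low genes before transplantation. Il7r, Ebf1, Lef1 and Rag1 were highest within both groups in the libraries of mouse 4 (for Lef1 in Selp low cells by 0.865 to 0.810 CPM), where Cd79a, a part of the B cell receptor complex, stood at 22.6 and 21.8 CPM against 2.55 to 7.05 CPM in the other 6 old libraries. The mouse 4 libraries were also highest of both groups for erythroid (2591 and 2118 CPM), plasmacytoid dendritic (42.7 and 42.9) and monocyte markers (506 and 321). For NK and innate lymphoid, mast cell and basophil, and platelet markers they were not highest in both groups. The 10 B progenitor markers, led by Ighm and Igkc, summed to 6050 and 2662 CPM in mouse 4. Their sums ranged over 377 to 6050 CPM among Selp low libraries, 187 to 2662 CPM among Selp high, 313 to 1392 CPM among Selp low-derived and 93.7 to 412 CPM among Selp high-derived libraries. In the same order of groups, 8, 9, 9 and 7 of the 10 had a read in every library. Dntt, in contrast, was highest of the Selp low group in replicate 1, where Cd79a stood at 7.05 CPM. Igll1 was at 0 in Selp high-derived replicate 1 and Selp low replicate 2, and Vpreb2 was at 0 in 7 libraries. After transplantation the highest B progenitor sums, a measure other than Cd79a alone, did not fall in the libraries with the most reads of these genes. Selp low-derived replicate 1, with the 1392 CPM, had the lowest Dntt, Il7r, Ebf1, Lef1 and Rag1 of its group. Selp high-derived replicate 1, with the 412 CPM, had no read of Dntt, Il7r, Ebf1 or Rag1 and the highest Lef1 of its group. Both libraries also had the highest plasma cell marker sum of their group, 128 and 68.8 CPM. The 11 T cell markers, led by Lck, summed to 15.1 to 30.3, 15.6 to 34.9, 11.8 to 17.7 and 10.2 to 14.1 CPM, with a read in every library for 5, 9, 7 and 2 of them, and Cd3e did not exceed 1.58 CPM. The part of these cells in the values of Dntt, Il7r, Ebf1, Lef1 and Rag1 was not tested.

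**Figure D3:**
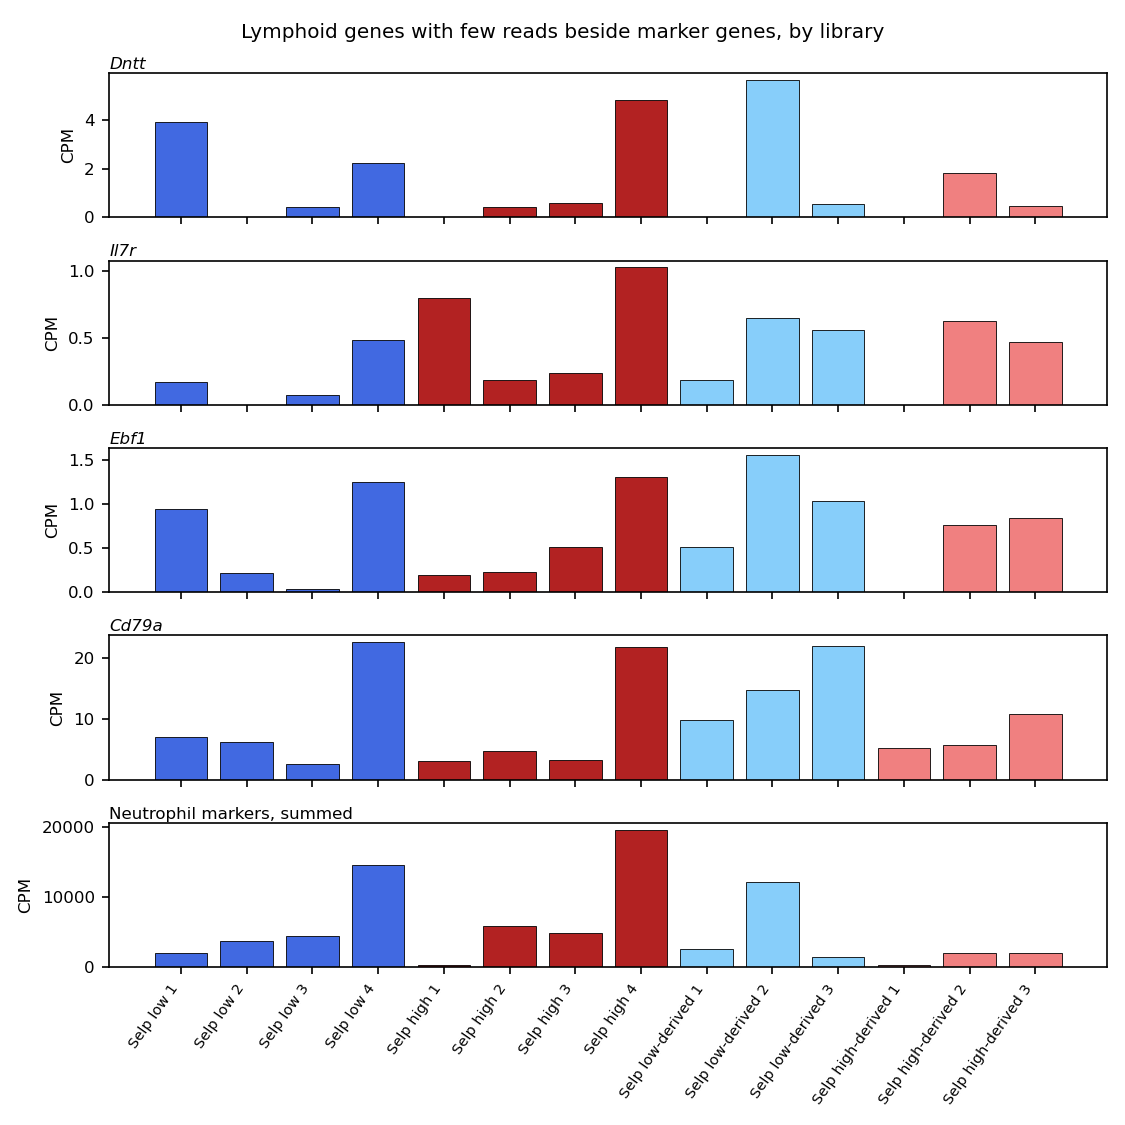
Bars give the level in CPM (vertical axes, from 0) of Dntt, Il7r, Ebf1, the B lineage marker Cd79a and the summed neutrophil markers in each of the 14 libraries. Both mouse 4 libraries and Selp low-derived replicate 2 are high in most panels, and Selp high-derived replicate 1 has no bar for Dntt, Il7r and Ebf1.

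After transplantation, Selp high-derived and Selp low-derived LT-HSCs were compared to ask whether the old cells' P-selectin level left a difference in their progeny. None of the 9 genes passed the threshold, and 0% of all genes did. At an unadjusted p under 0.05 were 0 of the 9 and 770 of all genes, and DESeq2 and limma voom called 0 of the 9, with 25 and 0 calls over all genes. The median log2 change was -0.34 for the 9 genes and 0.01 for all genes, with 4 values above and 5 below 0, and the groups of each of the 9 overlapped, while those of 10.3% of all genes did not.

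Tcf3 stood at 215, 170 and 194 CPM in Selp low-derived and 188, 238 and 225 CPM in Selp high-derived libraries, a log2 change of 0.17 ± 0.12 (adjusted p = 0.983). Ikzf1 read 79.7, 70.2 and 84.3 CPM against 98.1, 90.1 and 81.6 CPM (0.20 ± 0.20), and Bcl11a 95.1, 117 and 117 CPM against 119, 112 and 101 CPM (0.01 ± 0.11). Notch1 was at 21.8, 36.7 and 47.9 CPM in Selp low-derived and at 21.3, 20.8 and 23.5 CPM in Selp high-derived libraries. The 3 Selp high-derived values lay close together and reached up into the lowest Selp low-derived value, and the log2 change of -0.70 ± 0.43 had an adjusted p of 0.983.

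Satb1 read 2.20, 6.21 and 3.69 CPM against 4.76, 2.31 and 2.43 CPM (log2 change -0.35 ± 0.41). Dntt had 0, 157 and 13 reads against 0, 44 and 14 (-1.44 ± 1.95), with 1 library of each group at 0. Ebf1 had 14, 43 and 24 reads against 0, 18 and 25 (-0.95 ± 1.14), Il7r 5, 18 and 13 against 0, 15 and 14 (-0.34 ± 1.18), Lef1 6, 7 and 8 against 21, 7 and 5 (0.57 ± 0.82) and Rag1 1, 4 and 3 against 0, 6 and 3. Selp high-derived replicate 1 had no read of Dntt, Il7r, Ebf1 or Rag1 among its 27071796 assigned reads, and Selp low-derived replicate 2, with the highest Dntt and Ebf1 of all 14 libraries, had the high neutrophil sum given above. Without these 2 libraries the log2 changes of Dntt, Il7r, Ebf1 and Lef1 took the opposite sign, as did that of Bcl11a, which stayed near 0.

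The difference between the P-selectin contrasts after and before transplantation was fitted as an interaction. It was called for none of the 9 genes and for 0% of all genes, with 1 of the 9 and 873 of all genes at an unadjusted p under 0.05, and with 0 of the 9 called by DESeq2 and limma voom (11 and 0 calls over all genes). The gene at the unadjusted threshold was Tcf3, lower in Selp high cells before and higher in Selp high-derived cells after transplantation, with an interaction of 0.48 ± 0.16 on the log2 scale, an unadjusted p of 0.0105 and an adjusted p of 0.882. For Ikzf1 the interaction was 0.15 ± 0.26 and for Notch1 -0.62 ± 0.56.

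The comparison of the libraries after with those before transplantation asks what changed in aged LT-HSCs once they had regrown in a young host. Ikzf1 and Tcf3 were called higher over both inputs, and the other 7 tested genes did not pass the threshold. This was 2 of 9 genes where 27.5% of all genes were called in either direction and 13% (2192 genes) were called higher, so the share of the set is near that of all genes. The median log2 change was -0.07 over the 9 genes and -0.01 over all genes. Transplantation, the irradiated young host, the 16 weeks and the lack of a P-selectin gate after it changed together with the stage and cannot be told apart. The NK and innate lymphoid markers summed to 139 to 312 CPM in the 8 old libraries and 86.1 to 125 CPM in the 6 recovered ones. In Selp low, Selp high, Selp low-derived and Selp high-derived cells, only 3, 4, 3 and 2 of these 9 genes had a read in every library. The LT-HSC markers summed to 4229 to 4727 CPM in Selp low and 3874 to 4848 CPM in Selp high libraries, and to 2764 to 3434 CPM in Selp low-derived and 3438 to 3889 CPM in Selp high-derived libraries. The part of these shifts in the changes between stages was not tested.

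Ikzf1, a zinc finger factor without which lymphoid cells do not form normally, went from 54.1 ± 6.31 CPM in Selp low (n = 4) to 78.05 ± 7.18 CPM in Selp low-derived cells (n = 3), and from 56.1 ± 16.4 CPM in Selp high (n = 4) to 89.95 ± 8.25 CPM in Selp high-derived cells (n = 3). Each recovered group lay wholly above the group it came from. Groups were likewise apart, in either direction, for 22.1% of all genes in the Selp low input and 29.2% in the Selp high input. Over both inputs 5 of the 6 recovered libraries exceeded all 8 old ones, and Selp low-derived replicate 2 (70.2 CPM) was below the Selp high library of mouse 4 (78.2 CPM). The fitted log2 change over both was 0.61 ± 0.13, or 1.52-fold, with an adjusted p of 0.00289. It stayed past the threshold in all 22 alternative analyses run, with log2 changes of 0.53 to 0.73 and adjusted p of at most 0.0128.

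Tcf3 went from 189.6 ± 15.4 to 193 ± 22.6 CPM between Selp low and Selp low-derived cells and from 153.2 ± 12.7 to 217 ± 26.2 CPM between Selp high and Selp high-derived cells. The Selp low pair overlapped, while each Selp high-derived library, at 188 CPM or more, was above each Selp high library, at 168 CPM or less. The fitted log2 change over both inputs was 0.26 ± 0.08, or 1.20-fold, with an adjusted p of 0.0252. This call was lost in 9 of 22 alternatives, with adjusted p of 0.0520 to 0.126: with no filter on low counts, without both libraries of mouse 4, and without replicate 3 of Selp low, replicate 3 of Selp high, replicate 1 or 3 of Selp low-derived, or replicate 2 or 3 of Selp high-derived cells, and with both libraries of each old mouse summed. The 8 old libraries came from 4 mice, whose libraries deviated together, and entered the fit as 8. With the sums, an alternative chosen after seeing the data, Tcf3 had a log2 change of 0.23 with an adjusted p of 0.126, and Ikzf1 0.59 with an adjusted p of 0.00719.

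Within the Selp high input alone, both genes were called: Tcf3 with a log2 change of 0.50 ± 0.11 (1.42-fold, adjusted p = 0.00814) and Ikzf1 with 0.68 ± 0.18 (1.60-fold, adjusted p = 0.0197). These were 2 of 9 genes, where 15.4% of all genes were called and 7.74% were called higher. The Tcf3 call was lost without Selp high-derived replicate 2 (adjusted p = 0.0558). The Ikzf1 call was lost without Selp high replicate 3 (0.0555), without Selp high-derived replicate 1 (0.0905) or 2 (0.0635), and without Selp high-derived replicate 1 and Selp low-derived replicate 2 together (0.0902).

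Within the Selp low input none of the 9 genes was called, where 11.5% of all genes were, and 1 of the 9 (Ikzf1) had an unadjusted p under 0.05. Ikzf1 had a log2 change of 0.53 ± 0.18 and an adjusted p of 0.0740, and Tcf3 of 0.03 ± 0.12 with an adjusted p of 0.920. Ikzf1 passed the threshold in this contrast under DESeq2 (adjusted p = 0.0454), with library totals only (0.0434), without both mouse 4 libraries (0.0162), and without Selp high replicate 1 (0.0366) or 4 (0.0239), libraries that enter this contrast through the shared estimate of spread. The difference between the Selp high and the Selp low input is the interaction given above, which was not called for either gene.

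Bcl11a did not pass the test, with means of 114.8 ± 5.99, 117 ± 5.75, 109.8 ± 12.8 and 111 ± 9.26 CPM in Selp low, Selp high, Selp low-derived and Selp high-derived cells. Its log2 change from before to after transplantation was -0.07 ± 0.07 (adjusted p = 0.496). Notch1 had -0.07 ± 0.28, with 0.24 ± 0.40 in the Selp low and -0.37 ± 0.40 in the Selp high input. Satb1 had -0.43 ± 0.27 (adjusted p = 0.258), from 5.10 ± 0.776 and 4.56 ± 1.54 CPM before to 4.03 ± 2.03 and 3.17 ± 1.38 CPM after transplantation. Without Selp low-derived replicate 2 and Selp high-derived replicate 1 its log2 change was -0.88 with an adjusted p of 0.0233. Lef1 had -0.63 ± 0.54, Dntt -0.30 ± 1.27, Il7r 0.36 ± 0.78 and Ebf1 0.34 ± 0.75, all with adjusted p of 0.412 or more. The standard errors of Dntt, Il7r and Ebf1 were larger than the change seen for Ikzf1.

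**Figure D4:**
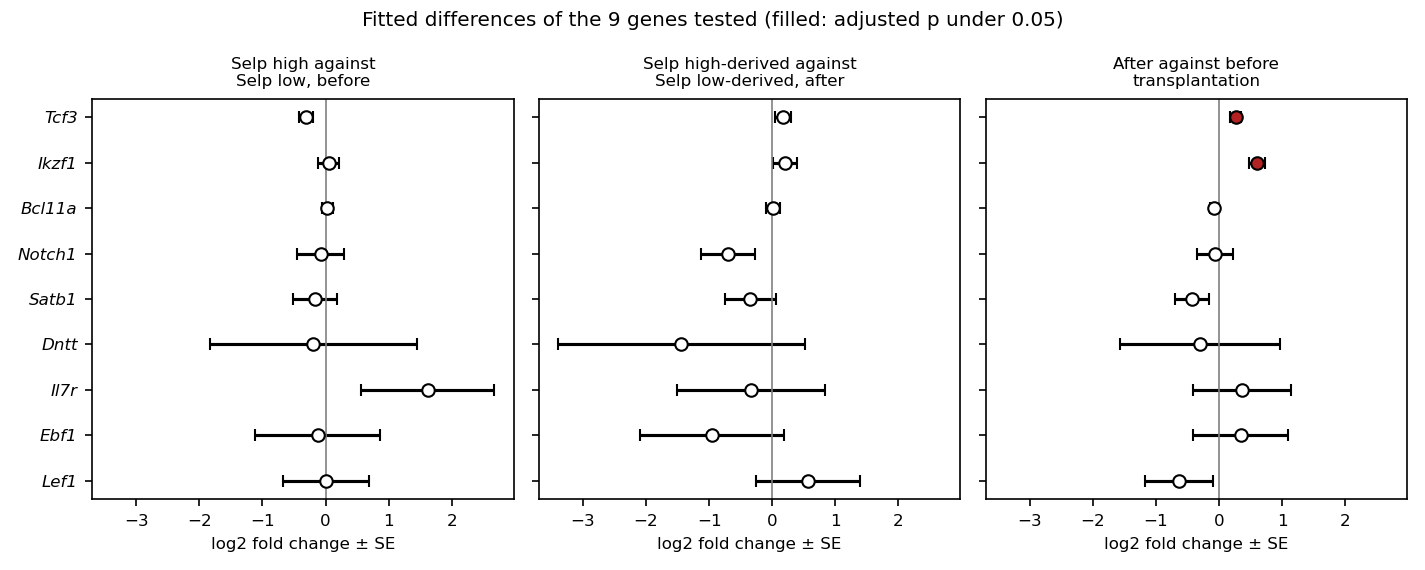
Log2 fold changes (horizontal axes) with their standard errors for the 9 genes tested, in 3 comparisons. Filled points passed an adjusted p of 0.05: Tcf3 (0.26) and Ikzf1 (0.61) after against before transplantation, and none in the 2 comparisons by P-selectin.

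The genes whose pattern over the 14 libraries was most like that of Ikzf1 were Lair1, Rab31 and 2310022B05Rik. The mean absolute difference of their centred log2 CPM from that of Ikzf1 was 0.121, 0.122 and 0.124, the smallest of 11352 protein-coding genes compared. For Tcf3 they were Npepl1, Slc35c2 and Mob3a, with mean differences of 0.0623, 0.0631 and 0.0712.

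Genes that act with the 10 were read from 8 lists of 104 genes, of which 102 had enough reads to be tested. Before transplantation, after it and in the interaction, 0 of the 102 were called, with 4, 8 and 8 at an unadjusted p under 0.05. After against before transplantation 18 were called higher and 21 lower, which is 38.2% of those tested beside 27.5% of all genes, with a median log2 change of -0.01 in both. With both libraries of each old mouse summed, 5 of these 39 calls were lost: Dll1, Tcf7l1, Xrcc6, Spi1 and Flt3, with adjusted p of 0.0741 to 0.108. Within the Selp low and the Selp high input, 18.6% and 25.5% of the 102 were called, beside 11.5% and 15.4% of all genes. A call over both inputs need not hold in each. Changes over both inputs are given by list, and no list was tested as a set. Counts per list stand beside the 27.5% of all genes called, with 13% of all genes called higher.

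The inhibitors of E proteins were called lower over both inputs. Among 8 E and Id protein genes, 0 were called higher and 5 lower after transplantation, with a median log2 change of -0.55. These included all 4 Id genes, whose products bind E proteins and keep them from DNA. Id1 went from 37.2 ± 24.1 and 42.8 ± 39.2 CPM in Selp low and Selp high to 6.37 ± 1.78 and 4.25 ± 0.153 CPM in Selp low-derived and Selp high-derived cells (log2 change -2.94 ± 0.53, adjusted p = 0.00147), although Selp high replicate 2, at 6.47 CPM, lay within the recovered range. The log2 changes of Id3, Id4 and Id2 were -2.57, -2.57 and -0.76. Id3 in Selp high replicate 2, at 2.36 CPM, also lay within its recovered range of 1.30 to 2.62 CPM. Id4 had 9 to 35 reads in the old libraries and 0 to 5 in the recovered ones, so its fold is uncertain. In the Selp low input, Id4 (-2.25, adjusted p = 0.0946) and Id2 (-0.29, adjusted p = 0.510) were not called by edgeR's test. Tal1, a stem cell factor that pairs with E proteins, fell by 0.35. By edgeR's test Tal1 was called in the Selp high input (-0.54, adjusted p = 0.0239) and not in the Selp low input (-0.15, adjusted p = 0.552). The other E protein genes Tcf4 and Tcf12 had log2 changes of 0.14 and 0.01 and did not pass the test.

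In the Ikaros family of 4 further genes, Ikzf2 (Helios) rose by 1.04 on the log2 scale (adjusted p = 0.000953), from 6.21 ± 2.06 and 6.37 ± 0.983 CPM to 15.4 ± 4.27 and 10.9 ± 1.77 CPM. Ikzf4 (Eos) fell by 0.89, and Ikzf5 (-0.14 ± 0.19) and Ikzf3 (0.00 ± 0.91) did not pass. By edgeR's test Ikzf2 was called in the Selp low input (1.31, adjusted p = 0.00666) and not in the Selp high input (0.77, adjusted p = 0.0678). Ikzf4 was called in the Selp high input only.

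Of 23 Notch pathway genes, 2 were called higher and 7 lower, with a median of -0.20. The ligand genes Jag2 (-1.29), Dll4 (-1.99), Jag1 (-1.72) and Dll1 (-1.43) fell, as did Mfng (-0.51), whose product modifies the receptor, and the target genes Hes1 (-2.37) and Hey1. By edgeR's test Dll1 was called in neither the Selp low (adjusted p = 0.329) nor the Selp high input (0.112). Hes1 in Selp high replicate 2, at 10.1 CPM, lay within its recovered range of 5.86 to 14.95 CPM. Hey1 had 29, 80, 29 and 32 reads in Selp low, 35, 3, 18 and 228 in Selp high, 0, 8 and 6 in Selp low-derived and 0 in each Selp high-derived library, so no fold is given. The receptor gene Notch2 and the coactivator gene Maml3 rose by 0.70 and 0.68, and the nuclear effector Rbpj, at 0.08 ± 0.09, did not pass. Notch1 itself, as given above, had -0.07 ± 0.28.

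Of 13 TCF/LEF and Wnt genes around Lef1, Tcf7l1 was called higher (0.85 ± 0.28, adjusted p = 0.0352) and 0 lower, a call lost in 11 of the 22 alternatives. Bcl9 (0.37) and Ctnnb1 (0.19), which encodes beta-catenin, did not pass. Of 11 genes of interleukin 7 signalling, 0 were called higher and 3 lower, a share near the 27.5% of all genes called in either direction. The 3 were Mcl1 (-1.54 ± 0.14), which encodes a survival protein, Cish (-1.51 ± 0.25) and Jak3 (-0.45 ± 0.09). Cish is a feedback inhibitor of cytokine receptors and Jak3 the kinase of the shared receptor chain. By edgeR's test Jak3 was called in the Selp low input (-0.71, adjusted p = 0.0039) and not in the Selp high input (-0.19, adjusted p = 0.372). Socs2 had -0.07 ± 0.16.

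Of 13 genes of V(D)J recombination, the reaction that Rag1 starts, 5 were called higher and 1 lower. The DNA repair genes Xrcc5 (0.61), Xrcc6 (0.28), Prkdc (0.79) and Atm (0.58) and the DNA-bending Hmgb2 (1.11) rose, and Polm, which encodes a polymerase related to Dntt, fell by 1.08. All of these also serve processes other than recombination. Rag2, the partner of Rag1, was at 0.231 ± 0.279, 0.0297 ± 0.0594, 0.257 ± 0.238 and 0.135 ± 0.204 CPM in the 4 groups and did not pass (1.14 ± 1.09), nor did Hmgb1 (0.15).

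Of 18 lymphoid fate factors tested, 5 were called higher and 3 lower. Runx3 (1.59 ± 0.17), Bach2 (0.76), Cbfb (0.50), Spi1 (0.39, a call lost in 14 of the 22 alternatives) and Myb (0.33) rose, and Ets1 (-1.46 ± 0.11), Foxo1 (-0.68) and Runx1 (-0.65) fell. Of 12 genes of lymphoid-primed multipotent progenitors, 4 were called higher and 1 lower: Sox4 (1.04 ± 0.11), Cd34 (1.03 ± 0.14), Flt3 (0.85 ± 0.23) and Lsp1 (0.58) rose and Hlf (-0.27 ± 0.07), a stem cell factor, fell. Ltb had -0.31 ± 0.30. Sox4 was called in the Selp high input (1.58, adjusted p = 5.17e-05 by edgeR's test) and not in the Selp low input. By input, Flt3 went from 18.0 ± 8.83 to 18.0 ± 2.74 CPM in the Selp low input (adjusted p = 1.00) and from 8.33 ± 2.49 to 26.9 ± 4.66 CPM in the Selp high input (log2 change 1.69 ± 0.32, adjusted p = 0.0028). The interaction of Flt3, 1.69 ± 0.46, had an unadjusted p of 0.00238 and an adjusted p of 0.882. Before transplantation 10 of these 12 had values below 0 in Selp high cells, with a median of -0.20 beside -0.02 for all genes, and 0 were called. The share of all genes below 0 was not counted, and the list was chosen with earlier results known. No difference of the list is read from this count. Sox4 was at 168, 175, 160 and 140.5 CPM in Selp low and 78.1, 118.5, 95.6 and 70.2 CPM in Selp high libraries, groups that did not overlap, as for 3.08% of all genes, with a log2 change of -0.83 and an adjusted p of 0.287. Flt3, the receptor of a cytokine that lymphoid progenitors need, was at 10.5, 30.1, 12.5 and 18.8 CPM in the Selp low libraries of mice 1 to 4 and 5.05, 9.79, 7.81 and 10.7 CPM in the Selp high ones. It was lower in Selp high cells of each mouse, in groups that overlapped (log2 change -1.11 ± 0.31, unadjusted p = 0.00252, adjusted p = 0.959 by edgeR's test). That fit, also used for Sox4, did not take the mouse as a block.

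**Figure D5:**
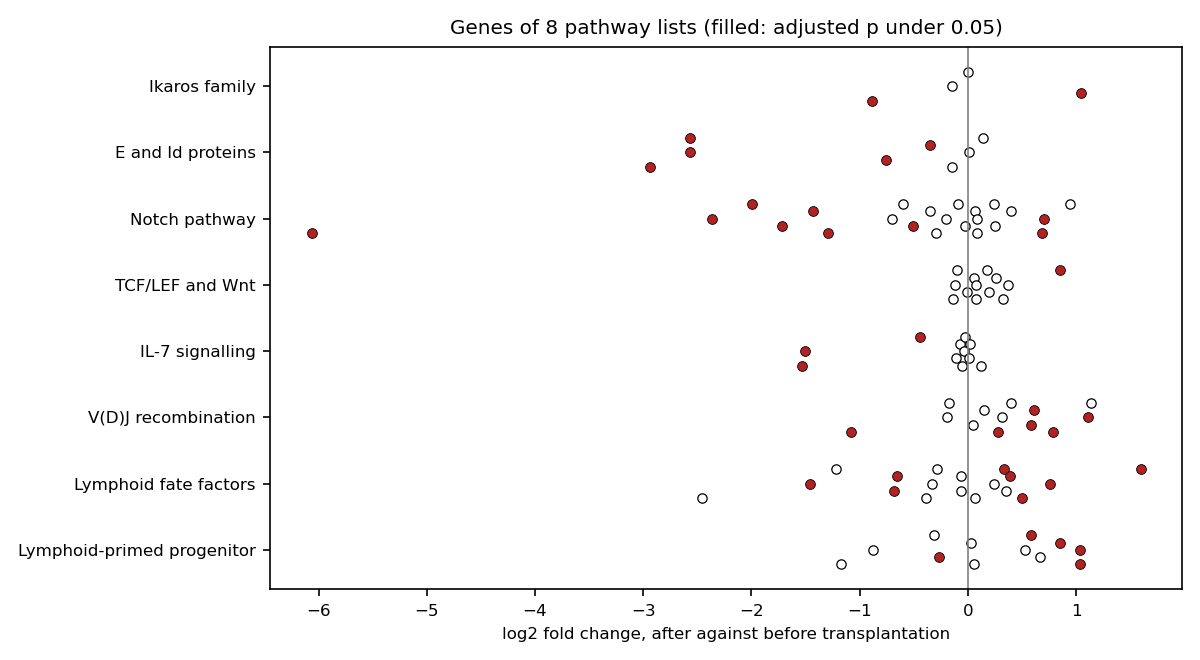
Log2 fold changes after against before transplantation (horizontal axis) of the 102 tested genes of 8 lists (vertical axis), each point a gene, filled where the adjusted p was under 0.05. E and Id proteins have filled points below 0 only (5 genes), and V(D)J recombination has 5 above and 1 below 0. The leftmost point is Hey1, whose fitted value rests on groups at or near 0 reads.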

How the data were processed

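The authors deposited whole-number read counts per gene for each library. STAR 2.7.0d and GRCm38, with FastQC 0.11.9 and Picard 2.23.0, are named in the submitters' processing notes, and the sources used here do not give the annotation release. cDNA was made from polyadenylated RNA by template switching and tagmented, per the labels' protocols. The deposited column that ignores strand was used, so a gene and its antisense partner cannot be told apart. Genes on the opposite strand share 13.7% of the exonic length of Lef1, 7.50% and 2.91% of Notch1 and 2.40% of Bcl11a. Unmapped (3.35 to 5.06%), multimapping (9.93 to 13.4%), unassigned (3.37 to 5.13%) and ambiguous reads (4.20 to 4.79%) stayed out of all library sizes. All 55450 identifiers matched GENCODE vM21.

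The test was edgeR 4.0.16 (R 4.3.3) with TMM factors of 0.963 to 1.042, its filter with a minimum count of 10, a quasi-likelihood fit of 4 group means over 14 libraries (10 residual degrees of freedom) and Benjamini-Hochberg adjustment over 16878 genes. Log2 CPM has a prior count of 2. The comparison of stages sets the average of both recovered groups against that of both old groups. DESeq2 1.42.0, limma 3.58.1 (voom), other scalings, no filter, single-stage fits, a replicate block and omitted libraries were alternatives, as was, chosen after seeing the data, summing both libraries of each old mouse for the comparison of stages. On simulated data with 200 of 16878 genes changed by 1 on the log2 scale, 65.5%, 53.5% and 79% were recovered before, after and between stages, with 7, 2 and 11 false calls. Smaller changes, such as the 0.26 of Tcf3 between stages, were not simulated, and in the data 4644 genes were called between stages. Dntt, Il7r and Ebf1 had a coefficient of variation of 1.71, 0.930 and 0.930, above the 0.322 common to all genes, so these shares need not hold for them. Before transplantation same-numbered libraries deviated together (r of 0.289 to 0.527 across genes, against -0.401 to 0.049 for others), and the number was read as the mouse. After transplantation they did not (-0.051 to 0.025). The labels do not tie recovered libraries to single recipients, so p-values measure only the spread among libraries, which may be technical.

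The members and the gene and marker lists were chosen with earlier results of these data known. Named pathway genes were, per list, the 3 with the smallest p between stages, the 1 with the smallest p before transplantation and the 1 with the highest RPKM. Further called genes (Notch2, Maml3, Hes1, Hey1, Dll1, Tal1, Xrcc6, Prkdc, Atm, Bach2, Myb, Foxo1, Flt3 and Lsp1) and Tcf4 and Tcf12 were named after their values were seen. The genes most like Ikzf1 and Tcf3 came from protein-coding genes averaging 1 or more log2 CPM. An interval or floor covers counting error only.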

Additional observations from a re-analysis of the deposited data

Results flagged for a closer look

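In the Selp high group of 4 libraries, 1 library stood apart from the other 3 for a pair of the genes. For Dntt, the gap between the highest library (4.83 CPM) and the next (0.585 CPM) made up 0.879 of the group's range. For Rag1, with 6 reads in that library and 0 or 1 in the others, the share was 0.843. In both cases it was the library of mouse 4, in which Cd79a stood at 21.8 CPM and the neutrophil markers summed to 19636 CPM. Dixon's limit is passed by chance in about 1 of 20 groups of this size.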

How the results depend on the processing

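Ikzf1 and Tcf3 kept a positive change between stages in all 22 alternatives, and the calls lost are given with the results. The count of the 9 genes called between stages was 1 with no count filter, 1 without both mouse 4 libraries, 1 with both libraries of each old mouse summed (chosen after seeing the data; TCF/LEF genes called higher were then 0), and 1 to 2 with each replicate left out. The count between stages was 3 without Selp high-derived replicate 1 and Selp low-derived replicate 2 together, with Satb1 called lower. In the Selp low input it was 1 with library totals only, 1 with DESeq2, 1 without both mouse 4 libraries and 0 to 1 with a replicate left out. In the Selp high input it was 1 once Selp high-derived replicate 1 and Selp low-derived replicate 2 were both omitted, and 0 to 2 with a replicate left out. Counts before, after and in the interaction were 0 in all alternatives. With the replicate block, which follows the mouse before transplantation and only a number after it, 0 of the genes and 4 and 2 of all genes were called before and after transplantation, against 0 and 0 without it. DESeq2 called 11, 25 and 11 genes before, after and in the interaction where edgeR called 0, and 2832 in the Selp low input where edgeR called 1940.

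Log2 changes that were not called changed sign as follows, and the cause was not tested. Without both mouse 4 libraries they were -0.10 (Ikzf1) and 0.081 (Notch1) before transplantation, 0.84 (Dntt), 0.065 (Ikzf5) and 1.16 (Ikzf3) between stages and -0.0089 (Tcf3, Selp low input). Without the 2 recovered libraries named above they were 2.06 (Dntt), 0.57 (Il7r), 0.050 (Ebf1), -0.29 (Lef1) and -0.0018 (Bcl11a) after transplantation. Under limma voom they were 0.27 (Ebf1, before), 0.011 (Notch1, between stages) and 0.72 (Ikzf3, between stages), and with library totals only 0.013 (Bcl11a, Selp low input) and 0.068 (Ikzf3). The replicate block gave 0.041 (Ebf1, before) and -0.0011 (Bcl11a, after), and fitting 1 stage only -0.0057 (Bcl11a, after).

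With each replicate left out, changes before transplantation ran from -2.29 to 0.70 (Dntt), -0.15 to 0.19 (Ikzf1), -0.45 to 0.18 (Notch1), -0.96 to 0.48 (Ebf1) and -0.35 to 0.38 (Lef1). After transplantation they ran from -3.13 to 1.48 (Dntt), -0.96 to 0.23 (Il7r), -0.79 to 0.11 (Satb1), -0.25 to 0.92 (Lef1) and -0.077 to 0.062 (Bcl11a). Between stages they ran from -1.76 to 0.75 (Dntt), -0.21 to 0.11 (Notch1), -0.40 to 0.59 (Ikzf3), -0.15 to 0.046 (Socs2) and -0.18 to 2.58 (Rag2), and in the Selp low input from -0.031 to 0.49 (Notch1), -0.063 to 0.11 (Tcf3) and -0.11 to 0.027 (Bcl11a). Without the 2 recovered libraries, genes called higher between stages numbered 1 (Notch list), 0 (TCF/LEF list), 3 (lymphoid fate list) and 2 (lymphoid-primed list), and 2 V(D)J genes were called lower. Leaving out a replicate gave 3 V(D)J genes called higher in 2 cases. With library totals only, 3 TCF/LEF genes were called higher. Few reads and a wide spread between libraries limit Dntt, Il7r, Ebf1, Lef1 and Rag1.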

Other observations

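E protein and Id gene levels were also summed per length in each library, a summary chosen after the values had been seen. Tcf3, Tcf4 and Tcf12 together had 55.9 ± 3.57 RPKM in Selp low, 46.7 ± 3.64 in Selp high, 57.0 ± 4.93 in Selp low-derived and 63.2 ± 7.03 in Selp high-derived libraries. Id1, Id2, Id3 and Id4 together had 54.6 ± 20.7, 68.1 ± 39.0, 20.4 ± 7.41 and 14.9 ± 1.41 RPKM. The ratio of the sums lay between 0.624 and 1.43 among Selp low libraries, 0.373 and 1.80 among Selp high, 1.83 and 4.42 among Selp low-derived and 3.36 and 4.81 among Selp high-derived libraries. Each of the 6 recovered libraries had a higher ratio than each of the 8 old ones, and the lowest recovered ratio (1.83) lay just above the highest old one (1.80). The ratio follows from gene changes already given and is no independent result.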
